A study of Mus musculus with 3 samples.

Results

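The genes described here encode the fibroblast growth factor (FGF) ligands, their receptors, the extracellular proteins that bind FGFs, and the genes that FGF signalling switches on and that damp it. They were chosen by symbol: every row named Fgf or Fgfr with a number, together with Fgfrl1, Fgfbp1, Fgfbp3, Spry1, Spry2, Spry4, Spred1, Spred2, Dusp6, Etv1, Etv4 and Etv5. This gave 38 of the 33696 genes counted, of which 22 are FGF genes, 5 are receptors, 2 are binding proteins, 6 are feedback inhibitors and 3 are transcription factors of the ETS family. They were followed in mouse embryo trunks cut from the third cervical to the second thoracic segment, from which forelimbs and thoracic organs had been taken away. Single cells were captured with droplets on embryonic days (E), from E11.5 over E12.5 to E13.5, with 1 library per stage made from 3 littermates pooled after dissociation with TrypLE, a trypsin-like enzyme. The labels give no mutation or treatment, and they name no strain. Every stage comparison is therefore between single libraries: there is no replicate spread, no test, and the intervals printed are 95% intervals of counting error only.

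FGFs bind heparan sulfate and receptor tyrosine kinases at the cell surface, and the receptors act mainly through RAS and the kinase ERK. ERK activity induces its own inhibitors, the Sprouty (Spry) and Spred proteins and the phosphatase Dusp6, and the ETS factors Etv1, Etv4 and Etv5, so these transcripts are widely used as a readout of FGF signalling, although other growth factors that act through ERK also induce them. In the embryonic trunk FGFs from the myotome act on the neighbouring sclerotome where tendon progenitors form, FGFs from mesenchyme act on the overlying epithelium, and FGF receptors restrain the growth of cartilage.

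The libraries held 103383215, 94155624 and 113402193 unique molecular identifiers (UMIs, counts of single captured transcripts), in the order E11.5, E12.5, E13.5, which all triplets of values below keep. Cells with 4000 or more UMIs that passed the filters numbered 6130, 6016 and 6922, and the median cell held 12336.5, 10954.5 and 10169 UMIs. Cells were grouped without the 38 genes, and groups were named from marker genes, so names carry the ending "-like" and are rebuilt from the data. More than 90% of the cells came from 1 library in 15 of 37 clusters and in 10 of 23 mesenchymal sub-clusters, so a class at different stages can hold different clusters. RNA outside cells was estimated at 2.16, 12.54 and 24.2% of the UMIs of cells, from the summed haemoglobin UMIs of non-erythroid cells, and at 1.89, 1.62 and 2.33% from the median cell. Transcripts of Xist, which female cells express, were found in 65.4, 26.8 and 95.3% of cells and Y-linked ones in 29.8, 60.6 and 2.47%, so the pools differed in sex, and stage and sex cannot be told apart in a plain comparison of libraries. Pairs of libraries shared 9, 16 and 9 cell barcodes.

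Levels are given as CPM, the UMIs of a gene summed over a cell class and scaled to the class's total UMIs. Because only transcript ends were counted, CPM values are compared between cells or stages for 1 gene, not between genes. At least 20 UMIs were found for 30 of the 38 genes in the E11.5 library, for 32 in the E12.5 library and for 34 in the E13.5 library. The remaining genes, with fewer than 20 UMIs at every stage, were Fgf17 (3, 7 and 7 UMIs by stage), Fgf23 (10, 10 and 6) and Fgf4 (18, 2 and 0).

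Promoter sequences were matched for 29 of the 38 genes, as 38 windows of 250 bases ending just before a RefSeq transcription start (build GRCm38.p6). Fgf4 and Fgf6 are shown because at E11.5 all 18 UMIs of Fgf4 and 59 of 61 UMIs of Fgf6 lay in a single small group of muscle cells. The other 4 are feedback inhibitors, and in them capitals mark CGGAAG or its reverse complement CTTCCG, a core that ETS factors can bind. The position is the distance from the first capital to the start.
Fgf4, chr7:144861136-144861385, plus strand: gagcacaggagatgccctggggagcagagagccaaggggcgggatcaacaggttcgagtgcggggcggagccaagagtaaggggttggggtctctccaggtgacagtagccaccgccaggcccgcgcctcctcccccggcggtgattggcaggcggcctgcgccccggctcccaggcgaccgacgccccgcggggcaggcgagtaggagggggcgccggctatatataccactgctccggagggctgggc
Fgf6, chr6:127015292-127015541, plus strand: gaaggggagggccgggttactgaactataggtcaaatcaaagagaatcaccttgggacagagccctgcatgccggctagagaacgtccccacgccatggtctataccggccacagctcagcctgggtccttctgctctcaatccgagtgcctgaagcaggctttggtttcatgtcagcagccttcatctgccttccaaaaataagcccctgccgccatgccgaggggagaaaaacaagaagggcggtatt
Dusp6, chr10:99262981-99263230, plus strand, core at -62: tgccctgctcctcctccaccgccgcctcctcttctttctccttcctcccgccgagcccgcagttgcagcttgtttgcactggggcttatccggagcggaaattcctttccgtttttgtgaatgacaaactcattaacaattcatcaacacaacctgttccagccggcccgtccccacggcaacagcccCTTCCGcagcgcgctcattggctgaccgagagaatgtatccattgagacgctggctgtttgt
Spred1, chr2:117120821-117121070, plus strand, core at -17: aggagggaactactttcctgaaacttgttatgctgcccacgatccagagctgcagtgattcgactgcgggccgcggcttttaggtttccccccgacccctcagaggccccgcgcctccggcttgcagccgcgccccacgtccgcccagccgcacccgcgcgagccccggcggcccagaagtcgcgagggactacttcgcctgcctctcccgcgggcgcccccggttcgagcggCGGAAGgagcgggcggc
Spred2, chr11:19924192-19924441, plus strand, core at -43: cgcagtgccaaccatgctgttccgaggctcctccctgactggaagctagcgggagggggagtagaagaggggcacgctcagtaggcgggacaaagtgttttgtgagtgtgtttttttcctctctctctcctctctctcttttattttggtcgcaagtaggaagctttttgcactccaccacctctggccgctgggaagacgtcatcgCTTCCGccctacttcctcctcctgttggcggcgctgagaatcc
Spry2, chr14:105896820-105897069, minus strand, no core: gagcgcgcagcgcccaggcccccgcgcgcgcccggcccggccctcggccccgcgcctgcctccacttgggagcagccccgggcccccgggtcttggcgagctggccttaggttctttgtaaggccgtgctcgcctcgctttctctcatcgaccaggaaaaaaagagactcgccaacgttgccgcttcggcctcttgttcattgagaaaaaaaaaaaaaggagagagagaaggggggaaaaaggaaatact
Of the 9 feedback and ETS genes 7 had a window, and 3 of these, Dusp6, Spred1 and Spred2, held the core. It stood in 8 of the 38 windows of FGF pathway genes and in 13.59% of all 32851 windows. The Fgf4 and Fgf6 windows were searched for CAGCTG, a palindromic E-box of the kind that muscle regulators such as Myod1 bind, and held none. Other E-box spellings were not counted. CAGCTG stood in 6 of the 38 windows and in 13% of all windows. A match is a stretch of letters and not evidence of binding, and a window without one says nothing about sites elsewhere.

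Each gene was first placed in the cell types that held it. A gene was called concentrated where its highest cell family was at least 2 times the next, over families with at least 50 cells. These numbered 9, 8 and 11 by stage, without macrophages at E11.5 (38 cells) and endothelium at E12.5 (31 cells), so counts of different stages cover different families. The call held for 11 of 30 genes at E11.5, where 22.9% of all genes tested were called, for 17 of 32 at E12.5 (27.8%) and for 16 of 34 at E13.5 (25.8%). At every stage this held in muscle for Fgf5 and Fgfr4, in neural progenitors for Fgfbp3, Fgfr3 and Fgf15, and in neurons for Fgf13. Muscle also led for Fgf9 at E11.5 and E12.5 and for Fgf6 and Fgf7 at E11.5. Mesenchyme led for Fgf18 and Fgf7 at E12.5 and E13.5, for Fgf8 at E12.5 and for Fgf10 and Fgf21 at E13.5. Epidermis led for Fgfr2 and Fgfbp1 at E12.5 and E13.5 and for Fgf20 at E13.5. Summed over the 18 secreted ligands, myocyte-like cells held 229, 65.7 and 31.7 CPM by stage, while sclerotome-like cells held 7.13, 46.6 and 117 CPM. The class with the highest sum was myocyte-like at E11.5, lateral plate-like at E12.5 (109 CPM) and tendon-like at E13.5 (144 CPM). Erythroid-like cells, which are not known as a source, held 0.61, 2.84 and 8.23 CPM, and endothelial-like cells 2.59 CPM at E11.5 and 3.67 CPM at E13.5. These sums are descriptions only: they add genes whose CPM values cannot be compared with each other. A class can also hold different clusters at different stages.

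**Figure D1:**
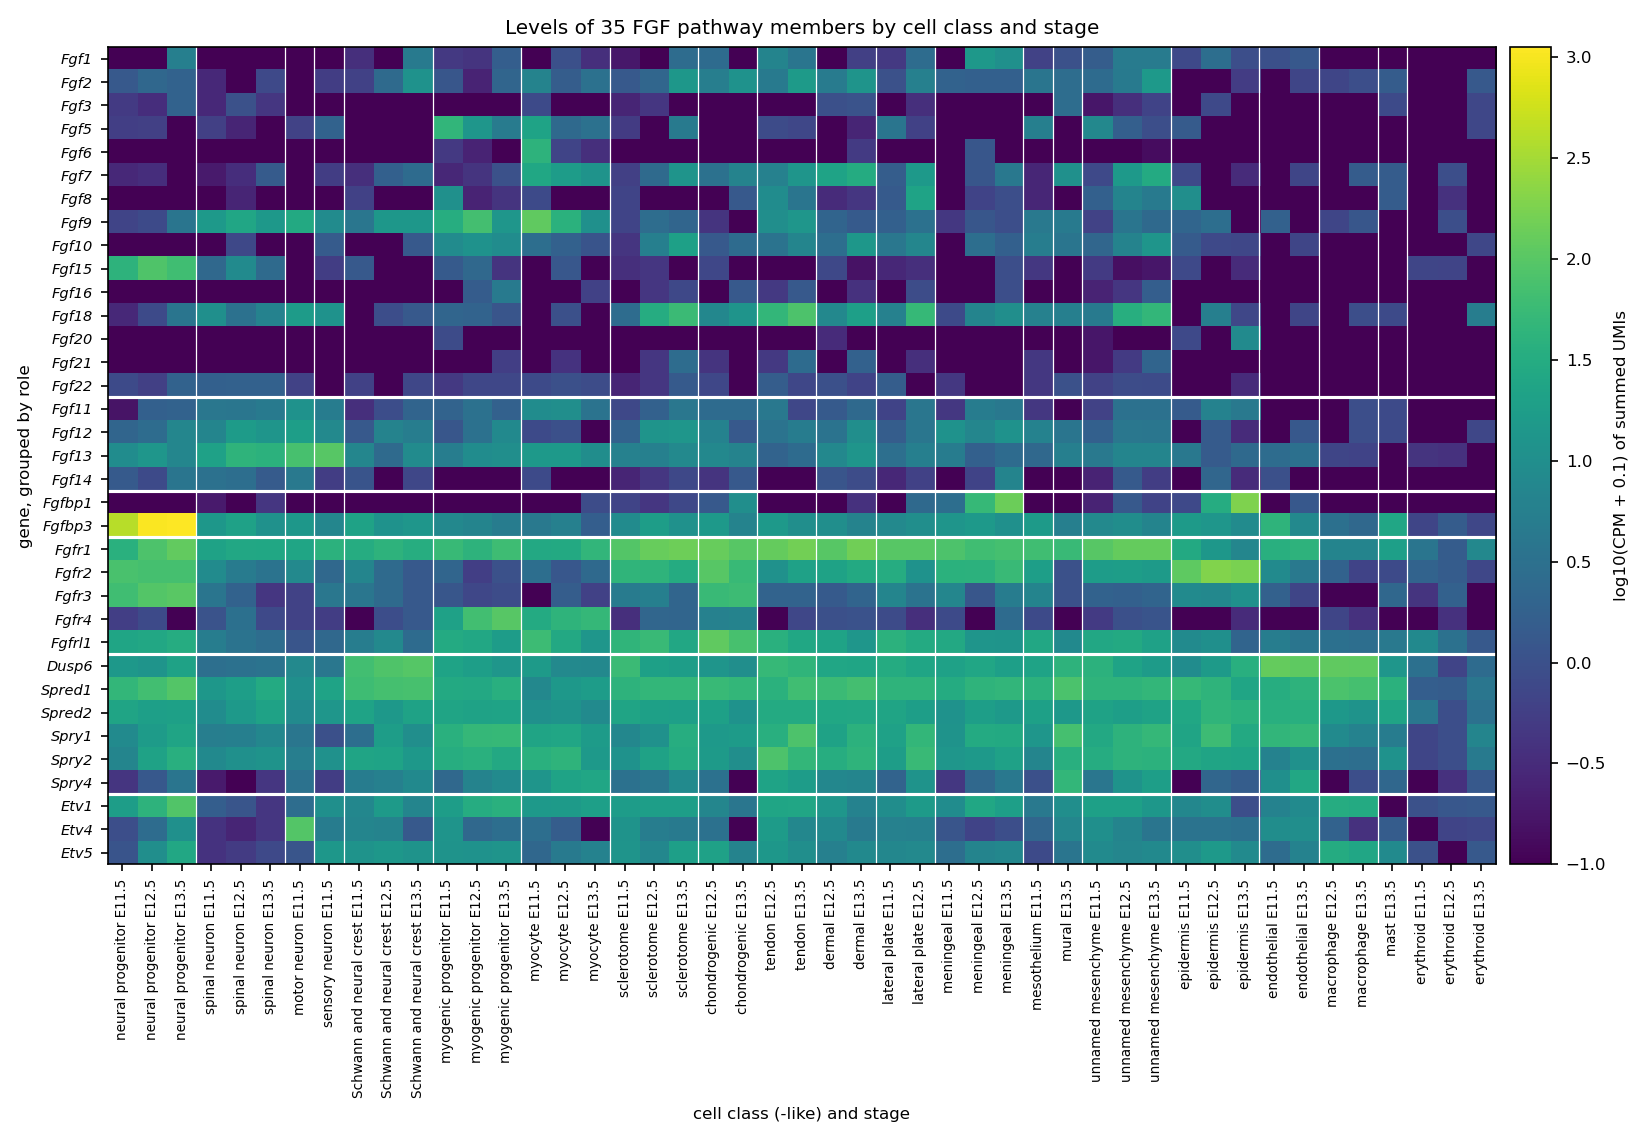
Level of each of the 35 genes with at least 20 UMIs in some library (rows, grouped as secreted ligands, intracellular FGFs, binding proteins, receptors, feedback inhibitors and ETS factors) in each cell class and stage with at least 50 cells (columns), as the colour of log10(CPM + 0.1). Muscle, neural progenitor, epidermis and mesenchyme columns carry different ligands and receptors, with Fgfbp3 at 408, 1048 and 1124 CPM in neural progenitor-like cells as the brightest row.

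In muscle the ligands of E11.5 were mostly lower at the later stages and the receptor Fgfr4 was higher. Myogenic progenitor-like cells (Pax7, Myf5, Msc) numbered 270, 271 and 382, and myocyte-like cells (Myog, Acta1, Mylpf) 76, 200 and 242. Fgf6, a ligand known from the myotome and regenerating muscle, had 61 UMIs in the E11.5 library, of which 59 lay in 24 cells of a cluster of 41 myocyte-like cells led by Mylpf, Tnnc1 and Acta1. In that cluster Fgf6 was at 74.7, 2.79 and 1.79 CPM by stage. Fgf4, another ligand of the myotome, had 18 UMIs at E11.5, all of them in 9 of these 41 cells, where it was at 22.8, 1.39 and 0 CPM. Outside it, 2 of 5 Fgf6 UMIs at E12.5 lay in meningeal-like cells and 7 of 9 at E13.5 in dermal-like cells. The later clusters of this group held 31 and 32 cells, under the minimum of 50 set for stage ratios. Neither Fgf4 nor Fgf6 gave a UMI in the other myocyte-like clusters, the larger of which is led by Myog and Mymx. Over all myocyte-like cells Fgf6 was at 0.579 CPM at E12.5, against 41.6 CPM at E11.5, a log2 ratio of -6.17 (-9.25 to -4.25), and the Mylpf-led cluster made up 31 of 200 cells at E12.5, against 41 of 76 at E11.5.

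Fgf9, a ligand best known from lung and testis development, was at 33.7, 68.4 and 13.1 CPM in myogenic progenitor-like cells. Its log2 ratio was 1.02 (0.77 to 1.28) for E12.5 over E11.5 and -2.38 (-2.74 to -2.05) for E13.5 over E12.5, so E12.5 was highest there. The ratio of the first step was under 2-fold in 4 of the alternatives tried, at 0.72 in cells that held Xist but no Y-linked UMI. In myocyte-like cells Fgf9 was at 115, 38.2 and 10.6 CPM, highest at E11.5 instead. Within the Mylpf-led cluster it was at 182, 73.9 and 30.4 CPM and in the Myog-led cluster at 30.3, 31.0 and 7.23 CPM, so part of the class's first step follows which cluster filled it. Between E13.5 and E12.5 the Myog-led cluster itself gave a log2 ratio of -2.10 (-2.83 to -1.43).

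Fgf5, known as the signal that ends hair growth, is also an early myotome ligand. In myogenic progenitor-like cells it was at 46.6, 13.49 and 4.78 CPM, with log2 ratios of -1.79 (-2.16 to -1.43) and -1.50 (-2.14 to -0.89). In myocyte-like cells Fgf5 was at 21.9, 2.32 and 3.09 CPM. Fgf8, an organiser of limb, brain and somite patterning, had 1 UMI in myogenic progenitor-like cells at E12.5, against 58 at E11.5, or 0.157 against 10.7 CPM, and 2 UMIs at E13.5. Fgf7 was at 26.1, 17.1 and 12.1 CPM in myocyte-like cells and at 39.3, 60.0 and 37.5 CPM in the Mylpf-led cluster. Fgf16, a close relative of Fgf9, had 0, 9 and 30 UMIs in myogenic progenitor-like cells (0, 1.41 and 4.62 CPM), and its log2 ratio for E13.5 over E12.5 was 1.71 (0.60 to 2.97).

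Fgfr4, the receptor of muscle progenitors, had the opposite order of stages. It was at 20.8, 65.6 and 98.9 CPM in myogenic progenitor-like cells, with a log2 ratio of 1.66 (1.35 to 1.97) for E12.5 over E11.5, or 0.90 with every cell thinned to 4000 UMIs. After thinning, 12.2, 21.8 and 32.2% of these cells held an Fgfr4 UMI, and 0 of 123, 188 and 123 erythroid-like cells did, which allows shares of up to 2.95, 1.94 and 2.95% (exact binomial limits). Before thinning the progenitor shares were 28.1, 72.0 and 74.1%, with median depths before thinning of 18794.5, 21895 and 16246 UMIs for progenitors and 25616, 18611 and 12444 UMIs for erythroid-like cells. In myocyte-like cells Fgfr4 was at 30.3, 43.7 and 49.0 CPM. Here the Myog-led cluster held 60.6, 54.2 and 55.1 CPM and the Mylpf-led cluster 6.33, 18.1 and 12.498 CPM, so the receptor was higher in the Myog-led cells while Fgf4 and Fgf6 were found in the Mylpf-led cells. Over 44 groups of cell class and stage, the genes whose level was most like that of Fgfr4, by the Pearson correlation of log2(CPM + 10), were Pitx3 (0.966), Cep41 (0.941), Vgll2 (0.935), Fitm1 (0.931) and Myod1 (0.923). The groups share 3 libraries, and some of these genes lead the muscle clusters.

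Fgfrl1, a receptor without a kinase domain, was at 60.0, 27.8 and 13.4 CPM in myocyte-like cells. Its log2 ratios were -1.11 (-1.55 to -0.67) and -1.05 (-1.57 to -0.55). Etv4 was at 12.53, 2.20 and 2.77 CPM in myogenic progenitor-like cells. In these cells 7 of 22 genes tested were 2-fold apart between E12.5 and E11.5, 4 higher and 3 lower, where 8.29% of all genes were apart, 3.71% higher and 4.58% lower. Between E13.5 and E12.5 it was 4 of 20, against 6.64%. Those higher in the first step included Spry4 and Fgf12, both with a log2 ratio of 1.51. Fgf12 was higher again in the second step, at 1.38. None of these ratios had a value after thinning to 4000 UMIs. In myocyte-like cells 5 of 17 genes were apart in each step, all lower at the later stage, against 10.5% of all genes apart and 6.6% lower in the first step, and 8.11% apart and 6.18% lower in the second. The immediate early genes, which dissociation can induce as FGF signalling can, summed to 1027, 1038 and 1860 CPM in progenitors, and their part in these ratios was not tested.

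**Figure D2:**
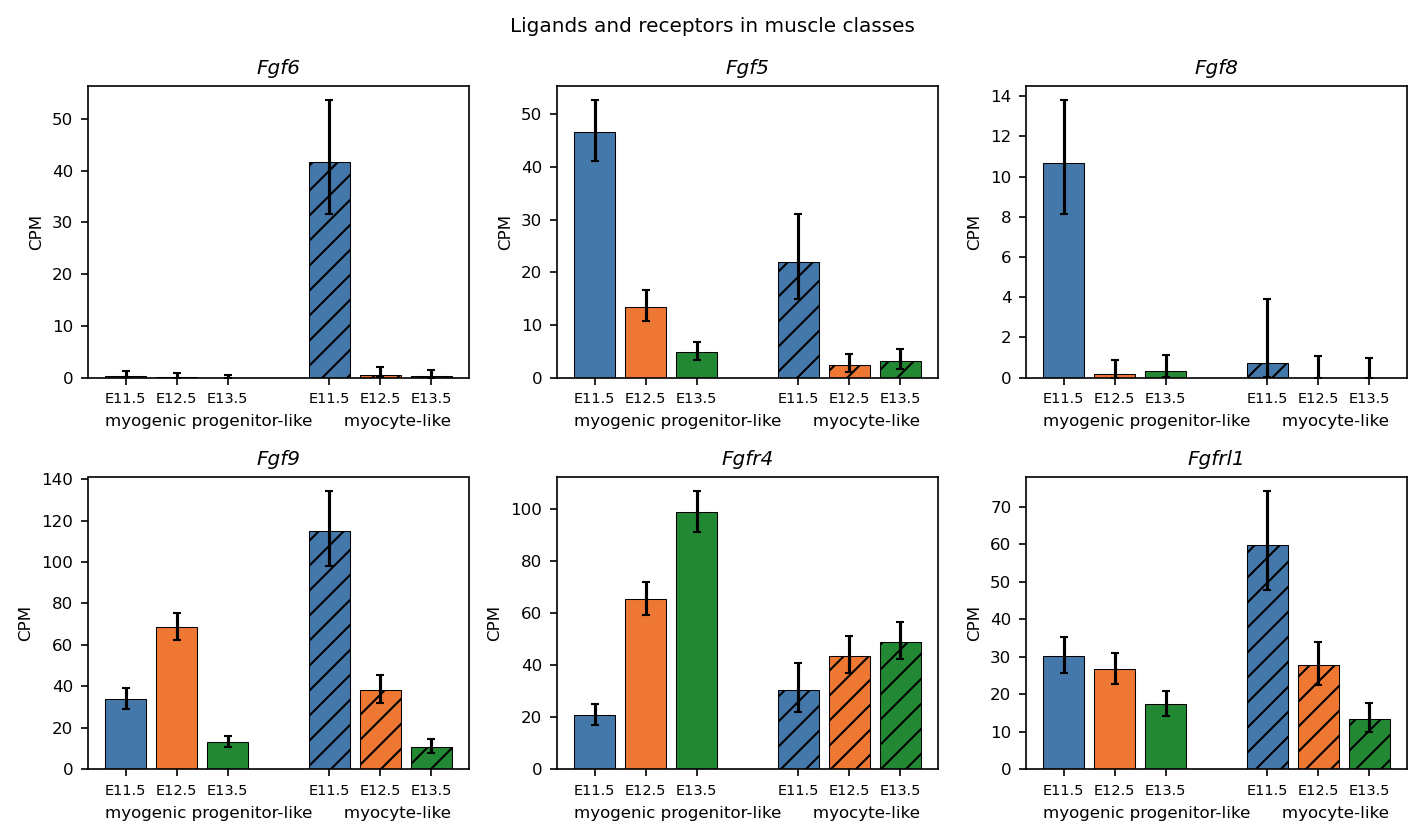
CPM of 4 ligands, the receptor Fgfr4 and Fgfrl1 in myogenic progenitor-like cells (left bars) and myocyte-like cells (hatched right bars), from E11.5 to E13.5, with 95% Poisson intervals as error bars. Fgf6 stands at 41.6 CPM in E11.5 myocyte-like cells, its highest bar, Fgf5 and Fgf8 are lower after E11.5, and Fgfr4 in progenitors is highest at E13.5, at 98.9 CPM.

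In the mesenchyme most FGF ligands were higher at E12.5 than at E11.5, while most receptors stayed within 2-fold. The 2433, 3088 and 4677 mesenchymal cells include the named sclerotome-, tendon-, dermal- and other classes and 881, 1557 and 2507 cells without a name. Fgf18, a ligand of cartilage and bone growth, was at 3.68, 30.2 and 37.9 CPM by stage, a log2 ratio of 3.04 (2.77 to 3.32) for E12.5 over E11.5. Fgf7, which acts on epithelia through Fgfr2, was at 0.689, 12.8 and 28.3 CPM, with log2 ratios of 4.21 (3.61 to 4.88) and 1.15 (1.001 to 1.30). Fgf10, its relative with the same target, was at 1.56, 5.24 and 12.8 CPM, with log2 ratios of 1.75 and 1.29 (1.06 to 1.52). All of these were highest at E13.5.

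Fgf2, a ligand made without a secretion signal, was at 1.74, 4.33 and 13.8 CPM. Its larger step was the second, with a log2 ratio of 1.67 (1.43 to 1.92) for E13.5 over E12.5. Fgf8 and Fgf1 were highest at E12.5 instead, at 1.05, 6.20 and 2.72 CPM for Fgf8 and at 0.659, 4.00 and 3.15 CPM for Fgf1. Fgf9 was at 0.719, 3.34 and 2.25 CPM, and Fgf5 was at 3.77, 0.911 and 0.670 CPM, the only gene of the set that was 2-fold lower at E12.5 than at E11.5, with a log2 ratio of -2.05 (-2.63 to -1.51). The scarce ligand Fgf16 was at 0.0599, 0.304 and 1.02 CPM, Fgf21 at 0.0300, 0.304 and 1.79 CPM and Fgf3 at 0.0899, 0.278 and 0.650 CPM. The intracellular FGFs, which bind ion channels rather than FGF receptors, were found here too. Fgf11 was at 0.569, 2.96 and 2.78 CPM, Fgf14 at 0.150, 0.936 and 0.709 CPM, Fgf12 at 2.49, 4.81 and 6.54 CPM and Fgf13 at 4.70, 6.20 and 8.81 CPM. At E13.5 dermal-like cells held the largest share of the UMIs of Fgf12 (39.96%, at 9.95 CPM) and of Fgf13 (31.5%, at 13.1 CPM), and in the sub-cluster led by Ptgds and Vtn, which is meningeal-like, Fgf12 was at 28.6 CPM at E11.5.

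Of 29 genes of the set tested, 13 were 2-fold apart in mesenchyme between E12.5 and E11.5, 12 higher and 1 lower. Of all genes, 15.5% were apart, 13.3% higher and 2.22% lower, and the median log2 ratio was 0.93 over the set and 0.15 over all genes. The 12 were Fgf7, Fgf18, Fgfbp1, Fgf14, Fgf1, Fgf8, Fgf11, Fgf9, Spry4, Fgf10, Fgfr4 and Fgf2, in order of ratio. The E11.5 cells lay largely in other sub-clusters than the E12.5 cells, so this step also compares different sub-clusters. Only the meningeal-like sub-cluster led by Ptgds and Vtn had enough cells at both stages for a ratio. In it 7 of 13 genes were apart, 4 higher and 3 lower, against 13.4% of all genes apart. Of the 133 mesenchymal Fgfbp1 UMIs at E12.5, 94 lay in 136 meningeal-like cells. Between E13.5 and E12.5, 8 of 32 genes were apart in all mesenchyme, 6 higher and 2 lower. Of all genes, 9.19% were apart, 4.26% higher and 4.93% lower, and the medians were -0.01 over the set and -0.10 over all genes. The genes that were lower in this step were Fgf8, with -1.19 (-1.50 to -0.88), and Fgfr3, with -1.15, or -0.86 in cells that held Xist but no Y-linked UMI. Chondrogenic-like cells held 180 Fgfr3 UMIs at E12.5 (254 of 3088 mesenchymal cells) and 48 at E13.5 (77 of 4677). Within these cells Fgfr3 was at 55.7 and 60.3 CPM, so the ratio of all mesenchyme also compares different shares of chondrogenic-like cells.

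Among the receptors Fgfr1, the main receptor of mesenchyme, was at 96.2, 117 and 133 CPM, and Fgfr2 at 31.2, 26.7 and 22.7 CPM. Fgfr3 was at 4.10, 6.45 and 2.92 CPM and Fgfr4 at 0.419, 1.21 and 1.12 CPM. Fgfrl1 was at 35.7, 36.8 and 19.3 CPM. Only Fgfr4, at E12.5 over E11.5, and Fgfr3, at E13.5 over E12.5, passed 2-fold. Both were scarce in mesenchyme as a whole. Chondrogenic-like cells, which numbered 1, 254 and 77 by stage, held 19 Fgfr4 UMIs at E12.5 (5.88 CPM). They also held 180 Fgfr3 UMIs at E12.5 and 48 at E13.5. The part of their cell numbers in these 2 ratios was not tested. Of the feedback inhibitors, Spry4 was at 2.94, 10.5 and 13.2 CPM, a log2 ratio of 1.83 (1.51 to 2.16) for E12.5 over E11.5. Spry1 was at 17.9, 34.1 and 45.8 CPM and Spry2 at 20.7, 40.2 and 39.9 CPM, both just short of 2-fold in the first step. Dusp6 was lower at the later stages, at 43.4, 24.1 and 19.9 CPM, as was Etv4, at 9.40, 6.73 and 3.94 CPM, neither by 2-fold in a single step. Between E12.5 and E11.5 the 3 Sprouty transcripts were thus higher and Dusp6 lower, although their proteins restrain the same cascade. In the second step Spry2 was nearly level. Spred1 was at 40.9, 45.7 and 55.4 CPM, Spred2 at 21.3, 20.5 and 23.2 CPM, Etv1 at 16.3, 18.3 and 11.4 CPM and Etv5 at 9.20, 8.58 and 8.53 CPM.

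**Figure D3:**
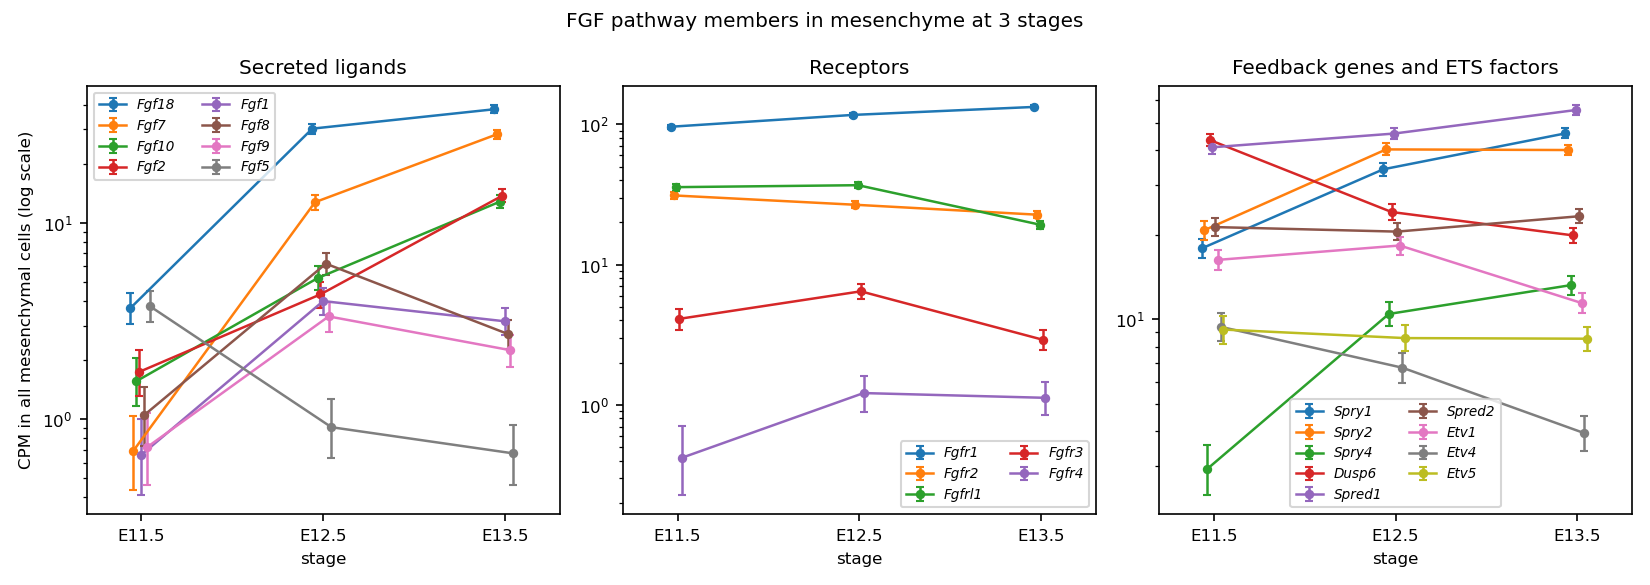
CPM on a log scale, with 95% Poisson intervals, in all mesenchymal cells, from E11.5 to E13.5, for secreted ligands (left), receptors (middle) and feedback inhibitors and ETS factors (right). Fgf18, Fgf7, Fgf10 and Fgf2 are higher at each later stage and Fgf5 is lower. Fgfr1 is higher and Fgfr2 lower at each later stage, both within 2-fold. Dusp6 and Etv4 are lower at each later stage while Spry1 and Spry4 are higher.

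Other genes of the pathway were taken from lists, to be read against the 15.5 and 9.19% of all genes that were apart in mesenchyme in the first and the second step. None of 18 adaptors and members of the RAS to ERK cascade was 2-fold apart in mesenchyme in either step. Of 14 further feedback genes, Flrt1 was higher at E12.5 than at E11.5 (8.35 against 1.41 CPM) and Dusp9 lower (7.77 against 23.5 CPM), and Spred3 was lower at E13.5 than at E12.5 (2.78 against 5.72 CPM). Of 19 co-receptors and heparan sulfate genes, Sulf1, which trims heparan sulfate, was at 90.5 CPM at E12.5, against 27.1 CPM at E11.5, and the proteoglycan Gpc4 at 19.5 against 4.70 CPM. Gpc2 was lower at E13.5 than at E12.5 (13.48 against 31.3 CPM). Of 17 immediate early genes, 11 were higher in the first step and 12 in the second, and their summed level was 1331, 2043 and 3616 CPM in mesenchyme. This sum was higher at each later stage, as were Fgf18, Fgf7, Fgf10, Fgf2, Spry1 and Spry4, and its part in those levels was not tested.

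The mesenchymal classes differed in their ligands. Tendon-like cells (Scx, Tnmd), held by a single sub-cluster at both stages, had Fgf18 at 82.1 CPM at E13.5, against 47.2 CPM at E12.5. Their Spry1 was at 81.5 against 35.3 CPM, a log2 ratio of 1.21 (0.82 to 1.60), while Spry2 was at 47.5 against 83.5 CPM and Etv4 at 7.41 against 16.7 CPM. The Sprouty genes thus differed in direction within 1 sub-cluster. These levels depended on which cells were called tendon-like: with a mitochondrial maximum of 5%, Spry1 at E13.5 was at 42.7 CPM and Spry2 was at 31.2 CPM at E13.5, against 49.5 CPM at E12.5. In tendon-like cells 6 of 20 genes were 2-fold apart, against 7.8% of all genes.

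Sclerotome-like cells (Pax1, Pax9) at E11.5 lay in other sub-clusters than at the later stages. Fgf18 was at 32.3 CPM there at E12.5, against 2.62 CPM at E11.5, and Fgf10 had 16 UMIs against 4. Dusp6 was at 20.1 against 57.8 CPM and Etv4 at 5.10 against 11.8 CPM. In this step 6 of 19 genes were apart, against 14.7% of all genes. The sub-cluster that held most later sclerotome-like cells, led by Pax9 and Pax1, gave a comparison within 1 sub-cluster. There Fgf10 was at 21.0 CPM at E13.5, against 4.89 CPM at E12.5, Etv5 at 19.6 against 4.40 CPM and Spry1 at 32.9 against 11.7 CPM. In it 6 of 18 genes were 2-fold higher at E13.5, against 3.45% of all genes. The immediate early sum of this sub-cluster was 3798 CPM at E13.5, against 2252 CPM at E12.5.

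Dermal-like cells (Dpt, Twist2) had the highest Fgf7 level of the named classes at E12.5 and E13.5, while cells of unnamed mesenchyme held 52.5 and 53.3% of its UMIs. At E12.5 the highest sub-cluster level was 36.6 CPM, in cells without a name led by Cxcl14 and Nxnl2. The sub-cluster led by Dpt, Osr2 and Cemip, nearly all from E13.5, had Fgf7 at 58.5 CPM over 808 cells and Fgf10 at 24.0 CPM, both the highest of the mesenchymal sub-clusters. A sub-cluster without a name led by Clec3b and Fst, also from E13.5, had Fgf7 at 41.4 CPM, Fgf18 at 66.6 CPM, Fgf2 at 20.2 CPM and Fgf10 at 19.6 CPM. Another dermal-like sub-cluster, led by Nrgn and Casz1, went against the mesenchyme as a whole, with Fgf7 at 7.03 CPM at E13.5, against 32.9 CPM at E12.5, a log2 ratio of -2.22 (-2.94 to -1.52). Over all dermal-like cells Fgf10 was at 14.0 CPM at E13.5, against 2.80 CPM at E12.5, and 6 of 25 genes were apart, against 12.9% of all genes. The class level of Fgf7, 31.4 CPM at E13.5 against 22.6 CPM at E12.5, followed the clustering: it was 8.35 CPM at E13.5 with each library clustered alone, and 1.45 CPM at E12.5 with a mitochondrial maximum of 5%. Fgf2 was 2-fold higher at E13.5 in 7 of the 9 sub-clusters compared, with an interval that includes 0 in 1 of them, and was at 22.9 against 5.61 CPM in the one led by C1qtnf3 and Hmx1. The genes most like Fgf10 over the 44 groups were Nrk (0.740), Fap (0.740), P3h2 (0.734), Emilin3 (0.729) and Plekhh2 (0.721).

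Fgf8 differed between mesenchymal sub-clusters. Lateral plate-like cells at E12.5, in a sub-cluster led by Shox2, Hoxa10 and Tbx18, had 85 UMIs of Fgf8, or 23.2 CPM (18.5 to 28.7). A sub-cluster without a name, led by Mxd3, H1f5 and Prc1, had 79 UMIs at E12.5 (13.9 CPM) and 49 at E13.5 (5.83 CPM). Unnamed mesenchyme as a whole held 133 of the 249 Fgf8 UMIs of the E12.5 library. The lateral plate-like class had Fgf8 at 21.9 CPM at E12.5, against 1.29 CPM at E11.5, Fgf18 at 50.7 against 5.92 CPM and Spry2 at 55.4 against 17.9 CPM. Fgfr2 was lower, at 11.3 CPM at E12.5, against 32.4 CPM at E11.5. Here 11 of 23 genes were apart, 8 higher and 3 lower, against 13.7% of all genes apart, 9.95% higher and 3.75% lower, but the E11.5 cells lay in a different sub-cluster led by Lhx9 and Msx2. With each library clustered alone the class held Fgf8 at 3.75 CPM at E12.5, so the value belongs to the sub-cluster rather than to the class name. At E13.5 Fgf8 was highest, at 20.6 CPM, in a sub-cluster without a name led by Igfbp3, Aldh1a3 and Ngfr, with 274 cells. This sub-cluster also had Spry1 at 114 CPM and Spry4 at 67.0 CPM, both the highest of the mesenchymal sub-clusters, together with Spry2 at 76.0 CPM and Dusp6 at 50.5 CPM. Its Etv1 at 30.7 CPM and Etv5 at 21.0 CPM did not differ beyond counting error from the next sub-clusters, at 29.7 and 20.7 CPM. High Spry4 without Fgf8 was seen in mural-like cells (Rgs5, Kcnj8), with Spry4 at 47.1 CPM and Spry1 at 71.6 CPM at E13.5. Correlations were taken over 31 groups of sub-cluster and stage, without the mesothelium-like and mural-like sub-clusters. Spry1 and Spry2 had a Pearson correlation of 0.832, Spry2 and Spry4 of 0.811, Spry1 and Spry4 of 0.757 and Dusp6 and Etv4 of 0.793. Other pairs were negative, among them Fgfr2 with Spry2 (-0.743), Spry1 (-0.682) and Spry4 (-0.61). These groups share 3 libraries and their depth, and the values are descriptions.

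**Figure D4:**
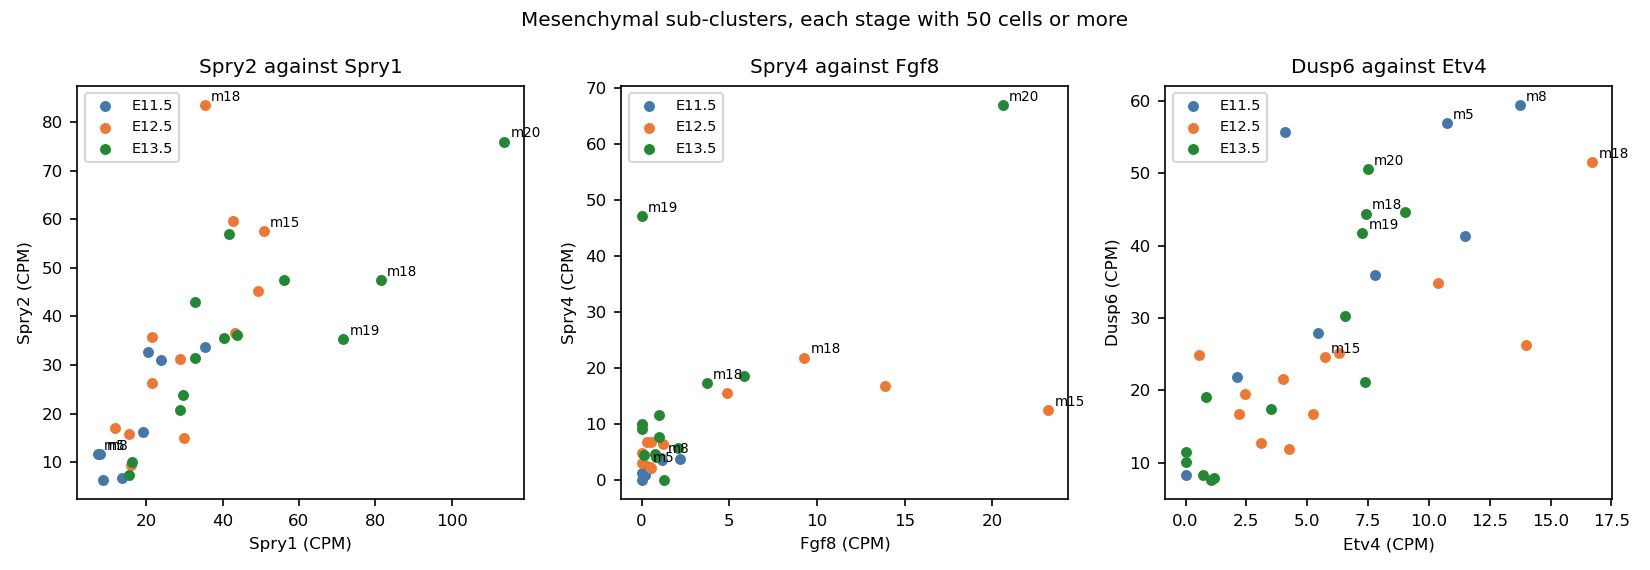
CPM of Spry2 against Spry1 (left), Spry4 against Fgf8 (middle) and Dusp6 against Etv4 (right), each point 1 mesenchymal sub-cluster at 1 stage with 50 cells or more, coloured by stage. The sub-cluster m20, led by Igfbp3 and Aldh1a3, has Fgf8 at 20.6 CPM and Spry4 at 67.0 CPM, the mural-like m19 has Spry4 at 47.1 CPM with no Fgf8, m15 is lateral plate-like, m18 tendon-like, and m5 and m8 sclerotome-like.

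Chondrogenic-like cells (Col2a1, Acan; 77 cells at E13.5, against 254 at E12.5) combined 3 receptors. Fgfr3, a brake on cartilage growth, was at 60.3 CPM at E13.5, against 55.7 CPM at E12.5, where all mesenchyme had 2.92 and 6.45 CPM. Fgfr2 was at 52.8 against 101 CPM, and Fgfrl1 at 74.2 against 114 CPM, and of these Fgfr2 came closer to the 2-fold mark. Fgfr1 was at 101 against 129 CPM. Etv5 was 2-fold lower, at 6.29 against 20.7 CPM, on 5 UMIs at E13.5. Of 17 genes 4 were apart, against 13% of all genes.

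Meningeal-like cells (Foxc1, Aldh1a2, Slc6a13) had the highest Fgf1 level of the named classes at E12.5 and E13.5. At E13.5 its interval (5.72 to 18.4 CPM) overlapped that of neural progenitor-like cells (1.12 to 15.9 CPM, 3 UMIs). Unnamed mesenchyme held 96 of the 168 Fgf1 UMIs of the E12.5 library. In meningeal-like cells Fgfbp1 was the highest of the named classes at E11.5 and E12.5, but second to epidermis-like cells (184 CPM) at E13.5. Fgf1, which binds every FGF receptor, had 0 UMIs in 260 of these cells at E11.5, 26 in 136 cells at E12.5 and 13 in 94 cells at E13.5, or 0, 14.4 and 10.8 CPM. Set against a floor of 3 UMIs, the E12.5 level was higher by at least 3.75 on the log2 scale. Fgfbp1, a carrier that frees FGFs from heparan sulfate, was at 2.86, 52.1 and 139 CPM, with log2 ratios of 4.19 (3.15 to 5.44) and 1.42 (1.04 to 1.80). At E11.5 most of the class (195 cells) lay in a sub-cluster absent from the later libraries, led by Zic4 and Zic1. In the sub-cluster present throughout, Fgf1 and Fgfbp1 were both at 0 UMIs in the 65 cells of E11.5. In the class 7 of 15 genes were apart in the first step, against 13% of all genes, and 1 of 15 in the second, against 8.58%.

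Neural progenitor-like cells (Sox2, Hes5, Pax6) held a binding protein, 3 receptors and a ligand at high levels. Fgfbp3, a carrier related to Fgfbp1, was at 408, 1048 and 1124 CPM, and Fgf15, a ligand of the neural tube and later of the gut, at 42.1, 87.5 and 65.2 CPM. Fgfr3 was at 64.7, 92.3 and 105 CPM, Fgfr1 at 37.1, 82.0 and 118 CPM, and Fgfr2 at 76.7, 72.2 and 70.6 CPM. The ETS factor Etv1 was at 17.8, 41.4 and 88.7 CPM and Etv5 at 1.04, 9.81 and 27.2 CPM, with Spry2 at 6.89, 21.8 and 36.2 CPM and Spred1 at 47.3, 65.5 and 94.1 CPM. Between E12.5 and E11.5, 7 of 18 genes were apart, all higher, against 12.9% of all genes apart and 9.84% higher. Between E13.5 and E12.5, where 72 cells were left, it was 2 of 14 (Etv1 and Etv5), against 17.7%. In cells that held Xist but no Y-linked UMI the first step gave log2 ratios of 0.79 for Fgfbp3, 0.76 for Fgfr1 and 0.65 for Etv1, against 1.36, 1.15 and 1.22 in all cells. With called doublets kept, 4 values were under 2-fold, at 0.99 for Fgfr1, 0.97 for Etv1, 0.90 for Fgf15 and 0.74 for Etv4, and with TMM factors, another scaling of the sums, Fgf15 was at 0.93. With each library clustered alone, Fgfbp3 was at 2.53.

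These class levels mix clusters that differ in FGF genes. A cluster led by Fabp7, Hes5 and Ptprz1 held 371, 121 and 60 cells, while a cluster led by Sox2, Msx3 and Pax3 lay at E11.5 (924 cells) and a cluster led by Hopx and Hes5 at E12.5 (287 cells). Fgfbp3 was at 1431, 3122 and 1296 CPM in the Fabp7-led cluster, but at 58.6 and 42.4 CPM in the Sox2-led and Hopx-led clusters. Fgfr3 was highest in the same cluster, at 107, 191 and 120 CPM, against 50.1 and 45.3 CPM in the other two. Fgf15 had the reverse order, at 28.1, 13.9 and 35.7 CPM in the Fabp7-led cluster, 47.0 CPM in the Sox2-led cluster and 121 CPM in the Hopx-led cluster. The class ratio of Fgf15 for E12.5 over E11.5 (log2 1.05, 0.87 to 1.24) was thus opposite to that within the Fabp7-led cluster (-1.02, -1.80 to -0.31). Within that cluster Etv5 had a log2 ratio of 4.39 (2.66 to 6.78), Etv1 of 2.17 (1.66 to 2.70), Spry2 of 2.15 (1.45 to 2.88) and Spry1 of 1.09 (0.38 to 1.79), while Spred1 had 0.82 (0.40 to 1.22), and the intervals of Dusp6 at 0.43 (-0.53 to 1.33) and Spred2 at 0.30 (-0.46 to 1.01) included 0. The immediate early sum of the class was 1468, 1872 and 2069 CPM.

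**Figure D5:**
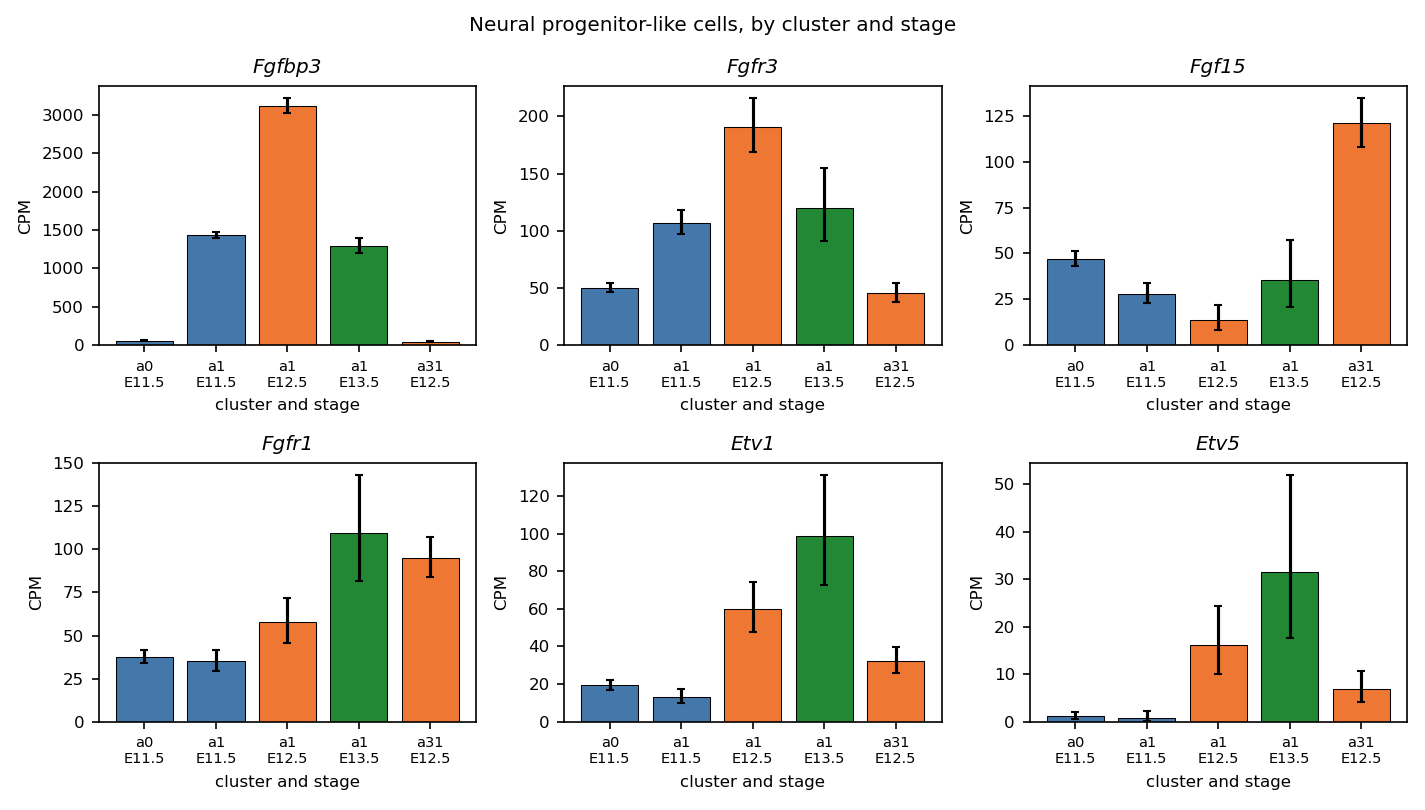
CPM of 6 genes, with 95% Poisson intervals, in neural progenitor-like clusters at stages with 50 or more cells: a0 (Sox2-led), a1 (Fabp7-led) and a31 (Hopx-led). Fgfbp3 reaches 3122 CPM in a1 at E12.5 and stays under 60 CPM in a0 and a31, Fgf15 is highest in a31 at 121 CPM, and Etv1 and Etv5 are higher at each later stage in a1.

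Neurons were the leading family of Fgf13. Fgf13, which modulates sodium channels, was at 101 CPM in sensory neuron-like cells at E11.5 (90 cells) and 73.3 CPM in motor neuron-like cells (94 cells), and at 20.8, 43.5 and 40.6 CPM in spinal neuron-like cells. Fgf12 was at 6.78, 16.9 and 13.0 CPM in spinal neuron-like cells and Fgf14 at 3.20, 2.84 and 1.36 CPM. Fgf11 was highest in motor neuron-like cells, at 11.3 CPM at E11.5. Fgf22, a presynaptic organiser, stayed under 2 CPM in spinal neuron-like cells, at 1.65, 1.70 and 1.71 CPM.

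Motor neuron-like cells at E11.5 had Etv4 at 93.8 CPM (80.4 to 109), the highest level of that gene. The 174 UMIs lay in 8 of the 94 cells, so a small subset carried them. With called doublets kept, Etv4 in motor neuron-like cells was at 62.2 CPM. Etv4 is known in mice as a marker of the cervical motor pools of the cutaneous maximus and latissimus dorsi muscles. Among secreted ligands these cells held Fgf9 at 29.1 CPM and Fgf18 at 16.7 CPM. Spinal neuron-like cells had Fgf9 at 14.7, 25.01 and 14.3 CPM and Fgf18 at 10.3, 3.17 and 6.14 CPM. At E11.5 a spinal neuron-like cluster led by Gadd45g and Tlx3 (138 cells), which also holds the progenitor gene Neurog2 among its leading genes, had Fgf18 at 56.7 CPM (43.0 to 73.2), above any mesenchymal class of that stage.

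Epidermis-like cells (Krt5, Krt14; 79, 95 and 286 cells) had the highest Fgfr2 level of any class. Fgfr2, the receptor of Fgf7 and Fgf10 in epithelia, was at 113, 192 and 170 CPM, and after thinning 46.8, 55.8 and 49.0% of the cells held an Fgfr2 UMI, or 78.5, 81.1 and 78.0% before thinning. Of erythroid-like cells 0.813 and 0.532% did at E11.5 and E12.5, and 0 of 123 at E13.5, which allows up to 2.95%. Counting transcript ends does not tell the epithelial isoform from the mesenchymal one. Fgfr1 was at 28.8, 13.8 and 7.03 CPM. Fgfbp1 was at 0.670, 32.4 and 184 CPM, with a log2 ratio of 2.51 (2.08 to 2.96) for E13.5 over E12.5. Spry1 was highest at E12.5, at 22.8, 59.3 and 28.8 CPM, while Dusp6 was at 9.38, 15.9 and 35.8 CPM. Fgf20, a ligand of hair placodes in mice, had 40 UMIs at E13.5, all in 18 of the 286 epidermis-like cells (8.52 CPM), with 6 UMIs in the E11.5 library and 1 in the E12.5 library. Fgf8 had 15 UMIs in the 79 epidermis-like cells of E11.5 (10.1 CPM) and none later. Between E12.5 and E11.5, 3 of 13 genes were apart, against 12% of all genes, and between E13.5 and E12.5, 3 of 14 were higher (Fgfbp1, Fgf20 and Dusp6), against 3.27% of all genes, and 2 lower (Spry1 and Fgfrl1), against 8.22%.

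Dusp6 was highest in endothelial- and macrophage-like cells, which held few ligand transcripts. Endothelial-like cells had Dusp6 at 124 CPM at E11.5 and 109 CPM at E13.5, and macrophage-like cells at 117 CPM at E12.5 and 111 CPM at E13.5, where Fgfr1 was at 6.64 and 6.69 CPM. Schwann- and neural crest-like cells had Dusp6 at 67.2, 87.3 and 94.9 CPM. The genes most like Dusp6 over the 44 groups were Litaf (0.887), Rgl1 (0.834), Frmd8 (0.824), Pacsin2 (0.807) and Wasf2 (0.800). Macrophage-like cells also had Etv5 at 31.4 CPM at E12.5 and 24.5 CPM at E13.5 and Spred1 at 79.1 and 70.5 CPM, and their immediate early sum, 6656 and 10130 CPM, was above that of every other class.

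The remaining genes are given here in the class with their highest level at each stage, among named classes with 50 or more cells. Not every class reached that number at each stage. Macrophage-like cells numbered 38 and tendon-like cells 0 at E11.5, chondrogenic- and dermal-like cells 1 each at E11.5, and endothelial-like cells 31 at E12.5. A different leading class at another stage can therefore follow which classes were included. Spred2 was highest in endothelial-like cells at E11.5 (36.3 CPM) and in epidermis-like cells at E12.5 and E13.5 (44.1 and 39.0 CPM). Spred1 was highest in Schwann- and neural crest-like cells at E11.5 (63.1 CPM), in macrophage-like cells at E12.5 and in neural progenitor-like cells at E13.5. Spry1 was highest in endothelial-like cells at E11.5 (45.8 CPM), in epidermis-like cells at E12.5 and in tendon-like cells at E13.5. Both other Sprouty genes led in myocyte-like cells at E11.5, with Spry2 at 36.7 CPM and Spry4 at 12.7 CPM. Spry4 was again highest there at E12.5, at 22.0 CPM, close to tendon-like cells at 21.9 CPM. Fgfr1 was highest in lateral plate-like cells at E11.5 (100.6 CPM), in chondrogenic-like cells at E12.5 (129.1 CPM) and in tendon-like cells at E13.5 (155 CPM). The next classes had overlapping intervals: sclerotome-like cells at E11.5 (93.0 CPM) and E12.5 (128.9 CPM), and dermal-like cells at E13.5 (146 CPM).

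Fgf10 was highest in myogenic progenitor-like cells at E11.5 and E12.5, at 9.03 and 11.6 CPM, and in sclerotome-like cells at E13.5, at 19.8 CPM. Fgf2 was highest in myocyte-like cells at E11.5 (6.35 CPM, 9 UMIs), in lateral plate-like cells at E12.5 (5.67 CPM) and in tendon-like cells at E13.5 (16.05 CPM). Etv4 at E12.5 was highest in tendon-like cells and at E13.5 in neural progenitor-like cells (10.9 CPM, 6 UMIs). Fgf14 was highest in motor neuron-like cells at E11.5 (4.31 CPM, 8 UMIs) and in meningeal-like cells at E13.5 (6.62 CPM, 8 UMIs). Fgf11 was highest in myocyte-like cells at E12.5 (9.84 CPM) and in spinal neuron-like cells at E13.5 (4.43 CPM). Fgf12 was highest in motor neuron-like cells at E11.5 (18.3 CPM) and in sclerotome-like cells at E13.5 (13.2 CPM). At E11.5 Etv1 was highest in myogenic progenitor-like cells (17.9 CPM) and Etv5 in sensory neuron-like cells (13.8 CPM). Other leading classes rested on few UMIs. Fgf3 had 1 UMI in myocyte-like cells at E11.5 (0.706 CPM), 11 in spinal neuron-like cells at E12.5 (0.893 CPM) and 3 in mural-like cells at E13.5 (2.72 CPM). Fgf21 had 2 UMIs in mesothelium-like cells at E11.5 (0.351 CPM), 1 in tendon-like cells at E12.5 (0.371 CPM) and 4 in sclerotome-like cells at E13.5 (2.64 CPM). Fgf8 had 6 UMIs in tendon-like cells at E13.5 (3.70 CPM) and Fgf22 had 1 UMI in neural progenitor-like cells at E13.5 (1.81 CPM). Fgf1 had 1 UMI in endothelial-like cells at E11.5 (0.864 CPM). Fgf20 had 4 UMIs in myogenic progenitor-like cells at E11.5 (0.737 CPM) and 1 UMI in dermal-like cells at E12.5 (0.215 CPM).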

How the data were processed

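The authors made the count matrices with Cell Ranger 8.0.1 on GRCm39, per the file headers and the submitters' processing notes. The deposited values are raw UMI counts with every barcode listed. No label or header states the annotation release or the use of intronic reads. Libraries were made with 10x Genomics Chromium 3' chemistry (version 3.1), per the labels' protocols.

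From these counts, cells were kept with 4000 or more UMIs, 500 or more genes and at most 10% mitochondrial UMIs, and doublets called by scrublet in scanpy 1.11.5 (2.90, 2.02 and 2.70% by stage) were removed before clustering. The libraries were clustered together without integration, with 3000 variable genes, 40 components, 15 neighbours and Leiden clustering in igraph 0.11.9 at resolution 1, and mesenchymal clusters were clustered again. Variable genes excluded the 38 genes, Xist and the Y-linked, haemoglobin, mitochondrial and ribosomal genes. A name needed at least 3 markers of the class.

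UMIs were summed per class and stage and scaled to CPM, with exact Poisson intervals, and ratios have exact conditional binomial intervals (95%, scipy 1.17.1). Intervals cover counting error only. A gene was tested in a ratio with 20 or more UMIs over both sums and at least 50 cells at both stages, and called apart at 2-fold. Shares were taken after thinning to 4000 UMIs. A fold over 0 UMIs used a floor of 3 UMIs. The ratio and family steps were tested on simulated data.

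Every gene of the set that reached 20 UMIs in a library is reported at each stage in the named class with its highest level. Ratios past 2-fold in a class are named only in part. The genes, lists and markers were chosen with earlier results of these data known. The promoter cores were chosen after several spellings of the ETS core had been looked at.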

Additional observations from a re-analysis of the deposited data

Results flagged for a closer look

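Some genes were 2-fold higher at the later stage in one class and 2-fold lower in another, with both intervals clear of 0. The difference between the classes was not tested in any of them. For E12.5 over E11.5, Fgf8 had a log2 ratio of 4.08 in lateral plate-like cells and -6.09 in myogenic progenitor-like cells, Fgf18 of 3.62 in sclerotome-like and -1.70 in spinal neuron-like cells, and Fgf9 of 1.84 in Schwann- and neural crest-like and -1.59 in myocyte-like cells. In the same step Etv4 had 1.64 in neural progenitor-like cells (11 UMIs at E12.5, 13 at E11.5, and 0.74 with called doublets kept) and -2.51 in myogenic progenitor-like cells, and Fgfr1 had 1.15 in neural progenitor-like and -1.06 in epidermis-like cells. For E13.5 over E12.5, Spry1 had 1.55 in sclerotome-like and -1.04 in epidermis-like cells, Etv1 had 1.10 in neural progenitor-like and -1.23 in Schwann- and neural crest-like cells, and Etv5 had 1.47 in neural progenitor-like cells (15 UMIs at E13.5) and -1.72 in chondrogenic-like cells (5 UMIs at E13.5).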

How the results depend on the processing

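No paired analysis was possible because each stage is 1 library. The alternatives were a mitochondrial maximum of 5%, called doublets kept, resolution 2, each library clustered alone, TMM factors (edgeR 4.0.16), a minimum of 1 UMI, free RNA subtracted, each cell thinned to 4000 UMIs, and cells that held Xist but no Y-linked UMI only. Of 99 counts of genes compared with these, 94 stayed within 1.5 times the reported one. With a minimum of 1 UMI, the count for E12.5 over E11.5 was 11 in neural progenitor-like and 12 in myogenic progenitor-like cells, against 7 in both as reported, and 11 for E13.5 over E12.5 in myogenic progenitor-like cells, against 4. It was 3 for E12.5 over E11.5 in neural progenitor-like cells that held Xist but no Y-linked UMI, and 3 in thinned myogenic progenitor-like cells. Scarcer genes enter at 1 UMI, and fewer reach 20 UMIs after thinning. In thinned myogenic progenitor-like cells Fgfr4 kept a value for E12.5 over E11.5 but was under 2-fold, at 0.90. The cause of the changed counts was not tested in any of these settings. Ratios were recomputed only for all mesenchyme and myogenic progenitor-like cells in both steps and for neural progenitor-like cells in the first. Ratios of other classes and of single clusters were not. Of 1042 ratios compared, 950 moved by less than counting error, as did 580 of 708 levels. These totals include 121 ratios and 80 levels at a minimum of 1 UMI, a setting that cannot move them. No ratio changed sign where it was past 2-fold. Of 39 ratios past 2-fold, 27 of 33 with a value stayed so in cells that held Xist but no Y-linked UMI, 28 of 29 after thinning, 34 of 39 with doublets kept and 37 of 38 with each library clustered alone. At this depth Fgf4, Fgf17 and Fgf23 stayed under 20 UMIs in every library, too few for a ratio.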

Other observations

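Some values of the set fell outside the main comparisons. Motor neuron-like cells at E12.5 numbered 9, too few for a ratio, and held Etv4 at 87.3 CPM (54.7 to 132), of which all 22 UMIs lay in 1 cell, and Fgf9 at 95.2 CPM (24 UMIs). Sensory neuron-like cells at E12.5 (47 cells) held Fgf13 at 254 CPM (224 to 286). Meningeal-like cells held Fgf12 at 11.4, 7.20 and 11.6 CPM from E11.5 to E13.5. A mesenchymal sub-cluster without a name at E11.5, led by Adamts18, Lor and Sncg, held Fgf5 at 11.7 CPM, the highest mesenchymal level of that gene, and dermal-like cells led by Nrgn and Irx1 held Fgfr1 at 170 CPM at E13.5 and Fgf13 at 20.1 CPM.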
